A study of Apostichopus japonicus with 12 samples.

Results

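Heat was compared as an effect averaged over oxygen level in respiratory tree tissue of the sea cucumber Apostichopus japonicus, with all 12 sequenced libraries in the comparison. The 6 libraries from water at 26 °C were set against the 6 others, and oxygen level was held as a covariate. The 26 °C side held 3 libraries under both stresses (26 °C and 2 mg/L dissolved oxygen) and 3 thermal libraries (26 °C). The other side held 3 hypoxic libraries (2 mg/L) and 3 normal control libraries. Strain, age and exposure time of the animals, the temperature of the hypoxic and control groups, and the oxygen level of the thermal and control groups are not stated in the labels. The comparison takes the hypoxic group to be at the control temperature and the thermal group to be at the control oxygen level. Nothing in the labels tells whether replicates came from separate or pooled animals, so p-values here reflect the spread between libraries alone, which may be technical.

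The respiratory tree is a pair of branched tubes that open into the cloaca, through which the animal pumps sea water to take up oxygen. Apostichopus japonicus is a temperate species that stops feeding and becomes dormant (aestivates) in warm summer water, and warm water also holds less oxygen. In animal cells in general, heat raises molecular chaperones that keep other proteins folded. Ribosome-depleted RNA, as used here, keeps both messenger RNA and long noncoding RNA. Whether fewer cells of a type or less RNA per cell lies behind a lower value cannot be told apart in RNA from whole tissue.

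Levels were given as FPKM, fragments scaled to feature length and to the library total. The table listed 59494 features, of which 28586 had AJAP and 30908 had MSTRG identifiers. MSTRG is the default name of loci assembled from reads by the program StringTie. The table did not pair identifiers with gene names, and 0 of them were found in RefSeq's gene table (assembly ASM3797524v1). Features are therefore given by identifier, with no role, sequence or position, and the tissue label could not be checked against marker genes. Between 20384479 and 28424612 reads per library were recovered from the FPKM values, and a value near 0.5 FPKM rested on a median of 10 reads. Across the tested features, heat accounted for 12.2% of the total sum of squares of the log2 values, low oxygen for 13.3%, their interaction for 9.56% and differences between libraries of 1 group for 64.9%. With no effect of any term, each of the first 3 would on average take about 9.09% (1 of 11 degrees of freedom) and the last about 72.7%.

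Few features were called for heat. Of 46763 features that reached 0.5 FPKM in at least 3 libraries, 162 (0.346%) had an adjusted p under 0.05 in limma's test (Benjamini-Hochberg over all features tested), 69 higher (0.148%) and 93 lower (0.199%) at 26 °C. Changes are given as differences of log2(FPKM + 0.5), a scale on which changes of low features come out too small. The median log2 change was 1.61 among the higher features and -1.60 among the lower ones, against 0.06 over all features tested. The higher features ran from 0.72 to 5.19 and the lower ones from -3.07 to -0.81. A change of at least 2-fold was met by 63 of the higher and 87 of the lower features, and one of at least 4-fold by 19 and 16. At least 16-fold was reached by 2 features, both higher. The largest changes thus lay among the features that rose.

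An adjusted p under 0.01 was reached by 6 of the 162 features, 114 lay between 0.01 and 0.04 and 42 between 0.04 and 0.05, while a further 380 features lay between 0.05 and 0.1. Altogether 5846 features (12.5%) had an unadjusted p under 0.05. With no change at any feature, a share of about 0.05 would on average. The features share the 12 libraries, so the share in a single data set can lie away from this. The calls count what passed the adjusted threshold, and the number of features that heat changed was not estimated. The 6 values at 26 °C lay wholly above or wholly below the 6 others at 125 of the 162 called features, against 563 (1.20%) of all features tested. The calls were chosen on these same values, which largely sets this count. A second test, limma's voom on recovered reads, gave 190 calls (0.406%), 66 of them higher and 124 lower. It shared 129 calls with the first, 51 higher and 78 lower. Scaling by median of ratios gave 60 higher and 120 lower features, a share of 33.3% higher against 42.6% without it.

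The count of 162 fell whichever library was left out. Each such fit also rests on fewer libraries, and the part of this in the lower counts was not tested. Leaving out replicate 1, 2 or 3 under both stresses left 68, 32 or 73 features. Leaving out thermal replicate 1, 2 or 3 left 84, 35 or 111, hypoxic replicate 1, 2 or 3 left 42, 22 or 20, and control replicate 1, 2 or 3 left 70, 77 or 33. Of the 162 features, 16 were called in each of these 12 fits, 10 higher and 6 lower at 26 °C. All 162 kept their direction in every fit that tested them, although features chosen from the full set of libraries are favoured in this. With no term for oxygen the count was 15, and with no filter on low values, where 59494 features were tested, it was 65.

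**Figure D1:**
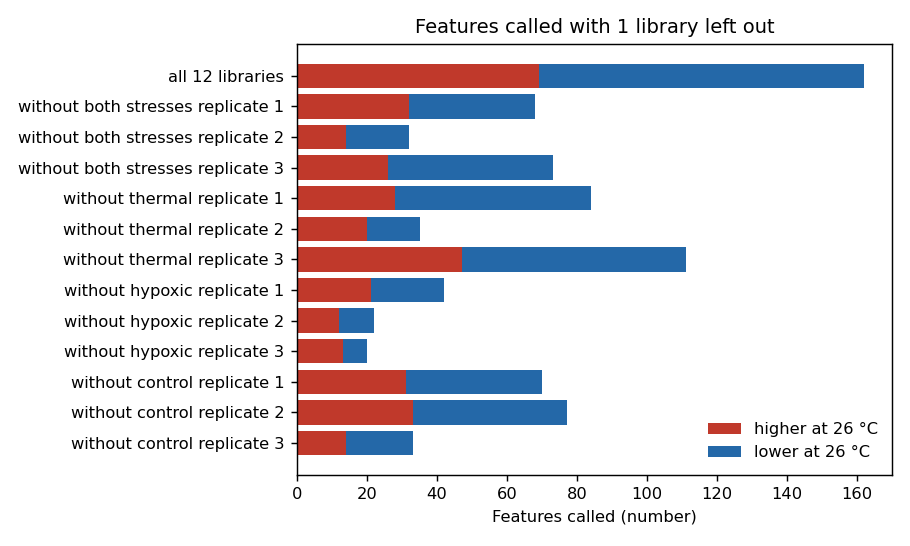
Number of features called (horizontal axis) with all 12 libraries and with 1 library left out (rows), split into features higher (red) and lower (blue) at 26 °C. The count of 162 with all libraries falls to between 20 without hypoxic replicate 3 and 111 without thermal replicate 3.

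Features of higher level were called more often. The share called was 0.0714% of 19613 features with a mean under 2 FPKM over the 12 libraries, 0.338% of 15995 between 2 and 10 FPKM, 0.766% of 10046 between 10 and 100 FPKM, and 1.53% of 1109 over 100 FPKM. Both directions followed this order: 0.0306%, 0.131%, 0.348% and 0.631% were higher at 26 °C, and 0.0408%, 0.206%, 0.418% and 0.902% were lower. Levels of low features rest on few reads, and the part of depth in this order was not tested. The called features had a median level of 13.8 FPKM (higher) and 11.6 FPKM (lower) against 2.79 FPKM over all features tested. Their median recovered length was 1060 bases (higher) and 1130 bases (lower), against 925 bases over the 46482 tested features with reads in at least 4 libraries.

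**Figure D2:**
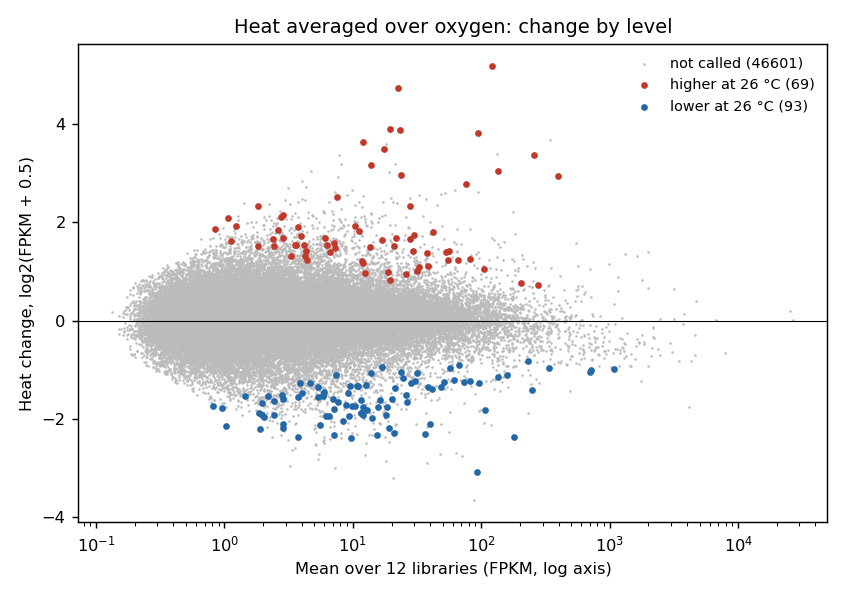
Heat change averaged over oxygen, as a difference of log2(FPKM + 0.5), against the mean FPKM over 12 libraries on a log axis, with 1 point per feature. The 69 features higher at 26 °C (red) reach a change of 5.19, the 93 lower ones (blue) reach -3.07, and few of either lie below 2 FPKM.

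The 2 kinds of identifier differed in level and in how often they were called. Of 22691 AJAP features tested, 120 (0.529%) were called, 44 higher (0.194%) and 76 lower (0.335%). Of 24072 MSTRG features, 42 (0.174%) were called, 25 higher (0.104%) and 17 lower (0.0706%). The median level was 6.37 FPKM for AJAP and 1.51 FPKM for MSTRG features. At like mean levels the shares called were 0.0719% of AJAP and 0.0712% of MSTRG features under 2 FPKM, and 0.487% and 0.180% between 2 and 10 FPKM. They were 0.770% and 0.752% between 10 and 100 FPKM, and 1.50% and 1.85% (2 MSTRG features) over 100 FPKM. The median log2 change over all tested features was 0.02 for AJAP and 0.10 for MSTRG features. Among the calls it was 1.57 and -1.55 for AJAP, and 1.68 and -1.88 for MSTRG features.

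The AJAP features that rose with the smallest p were higher in each library at 26 °C than in any of the others. AJAP17693 had 285, 300 and 223 FPKM under both stresses and 73.5, 149 and 43.4 FPKM in the thermal group, against 11.2, 7.56 and 15.3 FPKM in the hypoxic group and 6.36, 7.63 and 13.6 FPKM in the control group. The lowest library at 26 °C was above the highest other one, and the libraries under both stresses were the highest of all. Its log2 change with heat was 3.82 (SE 0.35, adjusted p = 0.0019 in limma), made up of 4.55 (SE 0.42) at low oxygen and 3.09 (SE 0.42) at the control oxygen level.

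AJAP04789 had the largest rise, with 248, 158 and 690 FPKM under both stresses and 57.1, 197 and 49.8 FPKM in the thermal group, against 24.1, 6.23 and 4.76 FPKM in the hypoxic group and 3.19, 0.508 and 1.56 FPKM in the control group. The sides did not overlap, but the spread within each group was several-fold. Its log2 change was 5.19 (SE 0.50, adjusted p = 0.0019 in limma), with 4.98 (SE 0.73) at low oxygen and 5.40 (SE 0.73) at the control oxygen level. Its estimate for low oxygen in the same fit was 2.07 (SE 0.50, adjusted p = 0.079).

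The AJAP features that fell with the smallest p changed less and varied less. AJAP06528 had 4.88, 3.69 and 2.88 FPKM under both stresses and 6.01, 7.13 and 7.01 FPKM in the thermal group, against 9.41, 10.7 and 12.1 FPKM in the hypoxic group and 21.0, 25.0 and 29.9 FPKM in the control group. The 4 groups did not overlap one another, so that each was a step below the next. Its log2 change with heat was -1.61 (SE 0.19, adjusted p = 0.0090 in limma), and that with low oxygen was -0.98 (SE 0.19, adjusted p = 0.044). Its level rested on 44 to 488 reads per library.

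AJAP13270 stood in the same order, with 13.4, 13.7 and 17.2 FPKM under both stresses and 18.6, 21.1 and 23.0 FPKM in the thermal group, against 28.6, 33.9 and 42.9 FPKM in the hypoxic group and 54.9, 49.6 and 46.9 FPKM in the control group. Here too no group overlapped the next. Its log2 change was -1.23 (SE 0.15, adjusted p = 0.011 in limma), nearly alike at low oxygen (-1.21, SE 0.22) and at the control oxygen level (-1.26, SE 0.22). Its estimate for low oxygen was -0.51 (SE 0.15, adjusted p = 0.15 in limma). The calls of AJAP17693, AJAP04789, AJAP06528 and AJAP13270 held without each library in turn, with a highest adjusted p of 0.0335. With no oxygen term AJAP06528 (adjusted p = 0.079) and AJAP13270 (adjusted p = 0.051) missed the threshold.

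Among MSTRG features, those that rose with the smallest p did so at both oxygen levels. MSTRG.89485 had 18.2, 25.4 and 23.6 FPKM under both stresses and 17.3, 24.4 and 13.9 FPKM in the thermal group, against 5.40, 6.61 and 8.02 FPKM in the hypoxic group and 6.10, 7.11 and 7.54 FPKM in the control group. The sides were well apart, while within each side the groups overlapped. Its log2 change with heat was 1.50 (SE 0.20, adjusted p = 0.011 in limma), with 1.68 (SE 0.28) at low oxygen and 1.33 (SE 0.28) at the control oxygen level. Its estimate for low oxygen was 0.12 (SE 0.20, adjusted p = 0.85). MSTRG.3937 had 36.5, 38.3 and 19.4 FPKM under both stresses and 40.3, 24.0 and 41.7 FPKM in the thermal group, against 12.5, 8.05 and 12.8 FPKM in the hypoxic group and 13.0, 8.19 and 5.92 FPKM in the control group. Its lowest library at 26 °C again lay above all others. Its log2 change was 1.68 (SE 0.26, adjusted p = 0.025 in limma), with 1.42 (SE 0.36) at low oxygen and 1.94 (SE 0.36) at the control oxygen level. The call was lost without replicate 2 under both stresses, hypoxic replicate 2 or 3, or control replicate 3, with adjusted p-values between 0.053 and 0.067.

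The MSTRG features that fell followed different courses over the 4 groups. MSTRG.27265 had 1.96, 2.02 and 4.49 FPKM under both stresses and 8.63, 5.74 and 5.57 FPKM in the thermal group, against 10.4, 13.8 and 9.32 FPKM in the hypoxic group and 25.1, 26.5 and 24.9 FPKM in the control group. It was lowest under both stresses and highest in the control group, with no overlap between any 2 groups. Its log2 change with heat was -1.88 (SE 0.22, adjusted p = 0.0090 in limma), the same at low oxygen (-1.88, SE 0.33) as at the control oxygen level (-1.89, SE 0.33), and that with low oxygen was -1.17 (SE 0.22, adjusted p = 0.039). With no oxygen term its adjusted p for heat was 0.080.

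MSTRG.99835 had 22.5, 20.6 and 22.0 FPKM under both stresses and 32.6, 21.7 and 47.3 FPKM in the thermal group, against 79.3, 60.5 and 76.5 FPKM in the hypoxic group and 74.3, 64.0 and 59.5 FPKM in the control group. The hypoxic and control libraries overlapped, and all 6 lay above the libraries at 26 °C. Its log2 change with heat was -1.36 (SE 0.20, adjusted p = 0.023 in limma), and its estimate for low oxygen was -0.22 (SE 0.20, adjusted p = 0.70). The call was lost without replicate 2 under both stresses, thermal replicate 2 or any 1 hypoxic library, with adjusted p-values between 0.051 and 0.063. The calls of MSTRG.89485 and MSTRG.27265 held without each library in turn.

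**Figure D3:**
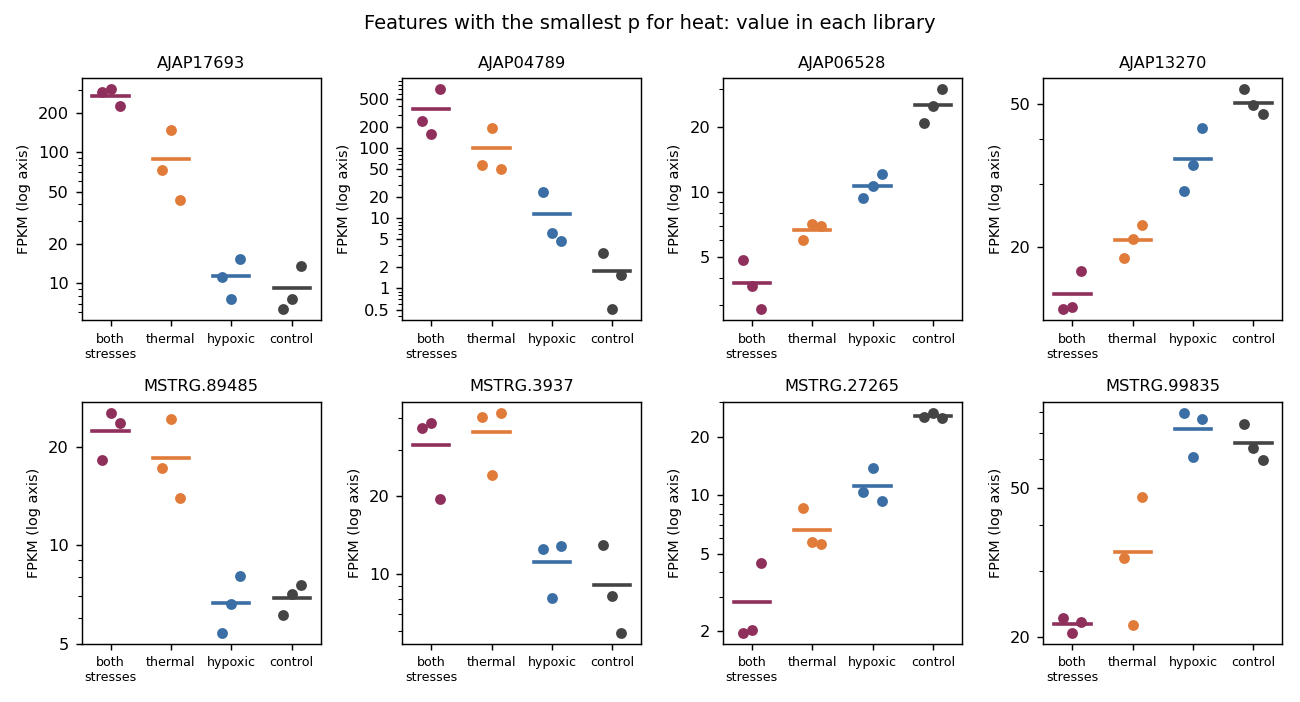
FPKM (vertical, log axis, its own range in each panel) in each library of the 4 groups for the AJAP and MSTRG features with the smallest p in each direction; points are libraries and lines are group means (n = 3). In every panel the 6 libraries at 26 °C (both stresses and thermal) lie apart from the 6 others, while for AJAP04789, AJAP06528, AJAP13270 and MSTRG.27265 the hypoxic and control libraries also do not overlap.

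The largest differences of mean level among the calls came from abundant features with wide spread or modest folds. AJAP09762 had 1441, 935 and 619 FPKM under both stresses and 269, 793 and 55.0 FPKM in the thermal group, against 320, 118 and 103 FPKM in the hypoxic group and 23.4, 23.8 and 20.2 FPKM in the control group. Thermal replicate 3 lay below all 3 hypoxic libraries, so the sides overlapped. Its log2 change with heat was 2.95 (SE 0.51, adjusted p = 0.032 in limma), and that with low oxygen was 2.41 (SE 0.51, adjusted p = 0.053). The heat call held without replicate 3 under both stresses, thermal replicate 2 or 3, or hypoxic replicate 1, and was lost without any other library (adjusted p between 0.061 and 0.086). 

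MSTRG.36839 had 558, 403 and 450 FPKM under both stresses and 314, 668 and 306 FPKM in the thermal group, against 41.6, 24.7 and 111 FPKM in the hypoxic group and 4.45, 127 and 72.0 FPKM in the control group. Both groups at 26 °C were at about the same level, and control replicate 1 lay far below the other control libraries. Its log2 change was 3.37 (SE 0.64, adjusted p = 0.045 in limma). The call held without control replicate 1 or 2, and was lost without any other library (adjusted p between 0.063 and 0.11).

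AJAP22945 was the most abundant of the called features described here, at rank 64 of all tested features by mean level. It had 671, 681 and 756 FPKM under both stresses and 839, 713 and 649 FPKM in the thermal group, against 2080, 1535 and 1333 FPKM in the hypoxic group and 1164, 1133 and 1396 FPKM in the control group. The sides did not overlap, and the hypoxic libraries held the highest value. Its log2 change was -0.98 (SE 0.17, adjusted p = 0.032 in limma), and the call held only without thermal replicate 1 or control replicate 2 (adjusted p between 0.052 and 0.079 without any other library).

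AJAP13574 had 397, 454 and 530 FPKM under both stresses and 557, 365 and 498 FPKM in the thermal group, against 855, 1250 and 1421 FPKM in the hypoxic group and 783, 678 and 823 FPKM in the control group. Each library at 26 °C was below each of the others. Its log2 change was -1.02 (SE 0.19, adjusted p = 0.043 in limma), and the call held only without thermal replicate 1 (adjusted p between 0.053 and 0.11 without any other library). With quantile normalization AJAP22945 (adjusted p = 0.081) and AJAP13574 (adjusted p = 0.093) missed the threshold, and on recovered reads both passed voom's test (adjusted p = 0.018 and 0.032).

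The changes at the 2 oxygen levels were then set side by side. These use different libraries: both stresses against hypoxic at low oxygen, and thermal against control at the control oxygen level. All 162 called features changed in the same direction at both, each with an unadjusted p under 0.05 at both in the 4-group limma model, against 2.07% of all features tested. A feature whose change differed much between the levels had little chance of being called on the average, so this is a description of the calls. Taken singly, heat called 16 features at low oxygen (0.0342%), 8 of them among the 162, and 8 at the control oxygen level (0.0171%), 5 of them among the 162. The libraries did not overlap at low oxygen for 162 of the 162 and at the control oxygen level for 161, against 17.0% and 14.9% of all features tested, and at both levels, in the same direction, for 161 against 2.55%.

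Higher features had a median log2 change of 1.56 at low oxygen and 1.75 at the control oxygen level, and lower features -1.68 and -1.43. The fall was the larger at low oxygen for 63 of 93 lower features, and the rise for 33 of 69 higher features, against 23466 of all 46763 features for the larger absolute change. The 2 changes were within 2-fold of each other for 139 of the 162 (85.8%), against 75.1% of all features tested. Over all 46763 features, which are not independent replicates and share the libraries, the changes correlated at r = 0.119 (Spearman's rho 0.113), and 54.2% had the same direction.

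**Figure D4:**
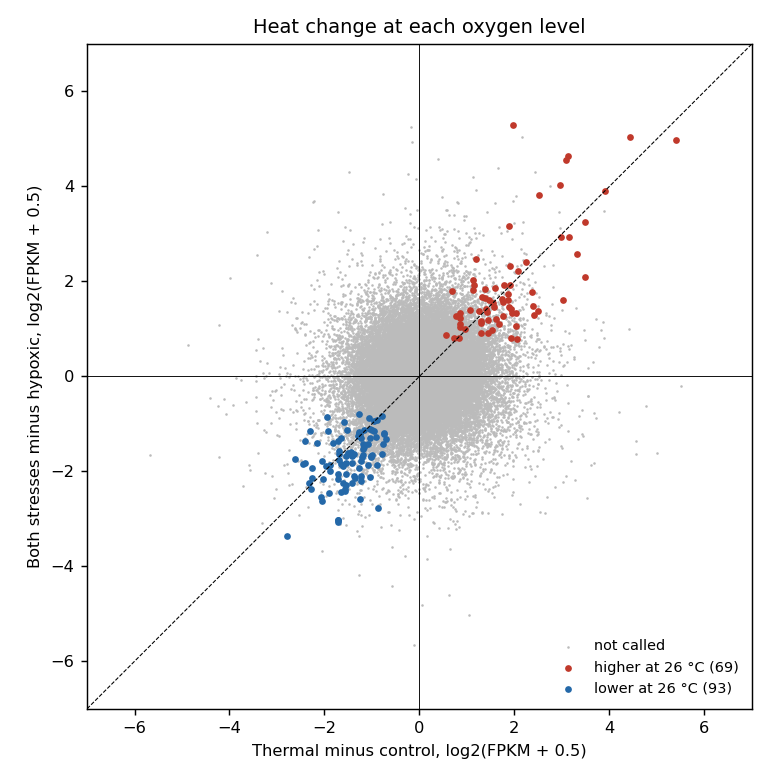
Heat change at low oxygen (both stresses minus hypoxic, vertical) against heat change at the control oxygen level (thermal minus control, horizontal), both as differences of log2(FPKM + 0.5), 1 point per feature, with equal change on the dashed line. Of the 69 higher (red) and 93 lower (blue) features, 139 of 162 lie within 2-fold of the dashed line. They were called on the average of the 2 axes, which favours this. The cloud of all features (r = 0.119) has little slope.

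No feature was called for a heat change that differed by oxygen level. The interaction test in limma called 0 of 46763 features, while 3587 (7.67%) had an unadjusted p under 0.05. With no difference at any feature, a share of about 0.05 would on average, with the same limit of shared libraries as for heat. The smallest adjusted p was 0.347. In voom's test 0 features were called for it, and 3374 had an unadjusted p under 0.05. Without control replicate 3 limma called 2. Among the 162 features, 12 had an unadjusted p under 0.05 for the interaction, 7 higher and 5 lower at 26 °C. The interaction is the change at low oxygen minus that at the control oxygen level, and it ran from -1.89 to 3.32 among them.

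The features with the largest interaction estimates among the calls were picked for those estimates, and none passed the adjusted threshold for the interaction. MSTRG.43287 had 108, 5.93 and 24.1 FPKM under both stresses and 1.13, 1.29 and 2.13 FPKM in the thermal group, against 0, 0.103 and 0.426 FPKM in the hypoxic group and 0 FPKM in all 3 control libraries. These values rested on 923, 53 and 213 reads under both stresses, 13, 13 and 19 in the thermal group, 0, 1 and 4 in the hypoxic group and 0 in the control group. It was thus close to the limit of detection outside 26 °C, so the size of its log2 changes depends on the 0.5 added to FPKM. It reached 0.5 FPKM only in libraries at 26 °C and so passed the filter only through the side where it is high, which left little room for no difference. With this limit, its log2 change with heat was 3.64 (SE 0.69, adjusted p = 0.047 in limma), with 5.30 (SE 0.77) at low oxygen and 1.98 (SE 0.77) at the control oxygen level, and its interaction of 3.32 (SE 1.09) had an adjusted p of 0.55.

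AJAP09309 had 14.7, 9.48 and 220 FPKM under both stresses and 20.3, 7.17 and 3.05 FPKM in the thermal group, against 1.10, 1.11 and 0.336 FPKM in the hypoxic group and 0.636, 0.229 and 0.536 FPKM in the control group. Its high mean under both stresses came from replicate 3. Its log2 change with heat was 3.88 (SE 0.69, adjusted p = 0.034 in limma) and its interaction was 1.52 (SE 1.36, adjusted p = 0.84). In voom's test MSTRG.43287 (adjusted p = 0.074) and AJAP09309 (adjusted p = 0.19) missed the threshold for heat. The call of MSTRG.43287 held only without replicate 1 under both stresses (0.059 to 0.11 without any other library), and that of AJAP09309 only without replicate 3 under both stresses or thermal replicate 3 (0.055 to 0.087 without any other library, adjusted p-values in limma).

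AJAP13526 had the larger estimated fall at low oxygen. It had 26.3, 16.3 and 28.0 FPKM under both stresses, against 163, 139 and 174 FPKM in the hypoxic group, which was -2.76 on the log2 scale (SE 0.31, adjusted p = 0.019 in limma). In the thermal group it had 98.5, 50.4 and 121 FPKM, against 146, 158 and 162 FPKM in the control group. That change was -0.87 on the log2 scale (SE 0.31, adjusted p = 0.36 in limma). The hypoxic and control libraries were close to each other, and the thermal libraries lay between them and those under both stresses. Its averaged heat change was -1.82 (SE 0.33, adjusted p = 0.038 in limma), and its interaction of -1.89 (SE 0.43) had an unadjusted p of 0.00086 and an adjusted p of 0.52 over all features tested. The heat call held only without thermal replicate 1 or 3 (adjusted p between 0.053 and 0.097 without any other library).

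MSTRG.136044 went the other way, with the larger estimate at the control oxygen level. It had 41.1, 22.0 and 103 FPKM in the thermal group against 7.66, 8.54 and 1.91 FPKM in the control group. Under both stresses it had 18.8, 39.6 and 55.3 FPKM, against 12.7, 9.87 and 10.4 FPKM in the hypoxic group. Both groups at 26 °C were above all other libraries. The log2 changes were 3.03 (SE 0.60) at the control oxygen level and 1.62 (SE 0.60) at low oxygen, and the interaction was -1.41 (SE 0.85, adjusted p = 0.74 in limma). Its averaged heat change was 2.32 (SE 0.45, adjusted p = 0.048 in limma), which missed the threshold in voom's test (adjusted p = 0.074) and held only without replicate 1 under both stresses (0.059 to 0.097 without any other library). With no oxygen term none of the 8 features chosen by difference of mean FPKM or by interaction passed (adjusted p between 0.056 and 0.18 in limma), nor did they with no filter on low values (0.057 to 0.079). MSTRG.36839 also missed the threshold in the 4-group model (0.053), MSTRG.43287 and AJAP09309 at a pseudocount of 1 (0.082 and 0.0501), MSTRG.43287 with quantile normalization (0.050), and MSTRG.136044 at a pseudocount of 0.1 (0.053).

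The oxygen term of the same fit gave a further description of the called features. Its median log2 estimate was 0.31 over the 69 higher features and -0.55 over the 93 lower ones, against -0.08 over all features tested. The estimate for low oxygen was positive at 48 of the 69 higher features (69.6%), against 42.7% of all features tested. It was negative at 80 of the 93 lower ones (86.0%), against 57.3% of all. The group means stood in the order both stresses, thermal, hypoxic, control, highest first, at 36 of the 69 higher features. A call for heat largely fixes that both groups at 26 °C come first, as they did at 66 of the 69. Of those 66, 54.5% had this order, against 27.0% of all tested features with both of these groups highest. The reverse order was found at 64 of the 93 lower features, 92 of which had both groups at 26 °C lowest. Of those 92, 69.6% had the reverse order, against 38.3% of all tested features with both lowest. The heat and oxygen estimates come from the same 12 libraries, so these counts are no separate evidence on low oxygen.

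No called feature had 0 reads in all 6 libraries of either side. Of the features tested, 65 had 0 reads in the libraries at 26 °C and 66 had 0 reads in the others. At the share called over all features tested (0.346%), hardly any of these would be called, so the absence says little about them. Such features pass the filter on low values only through the side where they are present. The same holds for 7 of the 162 (5 higher and 2 lower) that reached 0.5 FPKM on 1 side only, as did 1011 of all features tested, so their difference was partly set by the filter.

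The called features made up a small part of the summed FPKM. The 69 higher features together took 0.700%, 0.635% and 0.644% of the summed FPKM of a library under both stresses and 0.392%, 0.520% and 0.335% in the thermal group, against 0.180%, 0.142% and 0.151% in the hypoxic group and 0.115%, 0.143% and 0.119% in the control group. The 93 lower features took 0.375%, 0.369% and 0.380% under both stresses and 0.518%, 0.388% and 0.446% in the thermal group, against 0.922%, 0.925% and 0.921% in the hypoxic group and 0.827%, 0.853% and 1.00% in the control group. The features were chosen for these differences, so the shares show only their weight. Abundant features count most in such sums. Among them is AJAP09762, whose sides overlapped, with 1441, 935 and 619 FPKM under both stresses and 269, 793 and 55.0 FPKM in the thermal group. Within the 26 °C side, each library under both stresses had the larger share of higher features and the smaller share of lower ones, for lower features by a narrow margin (0.380% against 0.388%).

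Among 4 measures of whole libraries, the share of summed FPKM in MSTRG features was higher at 26 °C. MSTRG features took 20.0%, 20.9% and 18.9% of the summed FPKM under both stresses against 16.7%, 17.3% and 18.5% in the hypoxic group, and 20.2%, 20.4% and 22.8% in the thermal group against 20.2%, 20.2% and 16.3% in the control group. The groups did not overlap at low oxygen, and at the control oxygen level they all but touched. The difference was 2.35 percentage points averaged over oxygen (exact permutation test of heat within each oxygen level, two-sided, p = 0.005, the smallest that 400 assignments can give, adjusted p = 0.02 over 4 measures). The adjusted p was 0.08 and 0.14 without replicates 1 and 2 under both stresses, 0.06, 0.07 and 0.09 when thermal replicate 1, 2 or 3 was left out, 0.14 and 0.08 when hypoxic replicate 1 or 2 was, and 0.11 when control replicate 3 was (exact permutation tests). Counted in recovered reads the difference was 1.99 percentage points (exact permutation p = 0.13, adjusted p = 0.26). Without the 100 most abundant features it was 1.51 (exact permutation p = 0.05, adjusted p = 0.1). Both were computed after seeing the data, and neither passed after adjustment.

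The other measures did not pass. The share of summed FPKM in the 100 most abundant features lay between 22.8% and 27.2% at 26 °C and between 25.8% and 32.8% in the other libraries, a difference of -3.37 percentage points (exact permutation p = 0.04, adjusted p = 0.08). Without control replicate 2 it was -4.01 with an adjusted p of 0.03 (exact permutation test). Between 37427 and 39629 features reached 0.5 FPKM at 26 °C and between 36721 and 39294 in the other libraries, a difference of 332 (exact permutation p = 0.42, adjusted p = 0.56). The recovered reads differed by 751545 (exact permutation p = 0.615, adjusted p = 0.615), most of it from thermal replicate 1, since without that library the difference was -93313.

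**Figure D5:**
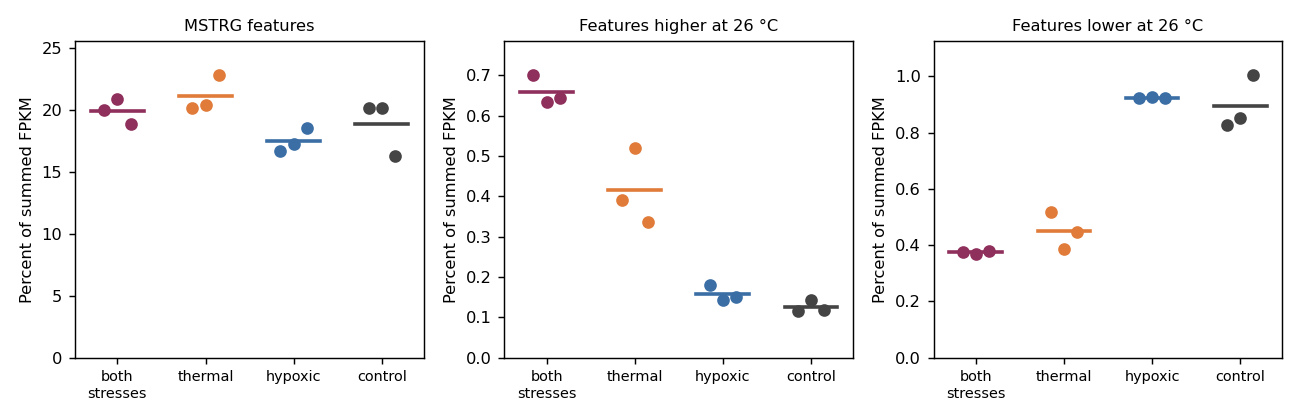
Percent of a library's summed FPKM taken by MSTRG features (left), by the 69 features higher at 26 °C (middle) and by the 93 lower ones (right), with a point for each library, a line for each group mean (n = 3) and axes from 0. The higher features reach 0.700% under both stresses against at most 0.180% in the hypoxic group, and the MSTRG share at 26 °C lies between 18.9% and 22.8% against 16.3% to 20.2% in the other libraries.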

How the data were processed

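RNA of the respiratory tree was sequenced in 12 libraries after removal of ribosomal RNA with a kit made for human, mouse and rat, in a directional protocol, per the labels' protocols. The deposited values are FPKM, 1 column per library. The submitters' processing notes name Bowtie2 2.2.3, TopHat2 2.0.12, Cufflinks and DESeq 1.16, with no role for each. Genome build, annotation and use of strand in counting are not stated in the labels, so reads of antisense partners and near-identical copies may be mixed.

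Reads were recovered as the whole numbers implied by FPKM, feature length and library total. Whole reads, within 0.001, came out for each of the 59494 features. With wrong totals they came out for 0 of 3000 features drawn from those with reads in at least 4 libraries. That trial searched a shorter range of lengths, and features with reads in fewer libraries were not tried. The recovered totals ran from 20387909 to 28428042.

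Features that reached 0.5 FPKM in at least 3 libraries were fitted as log2(FPKM + 0.5) on heat and oxygen in limma 3.58.1 (R 4.3.3) with a variance trend. A 4-group model gave the changes at each oxygen level and the interaction. Limma's voom used the recovered reads, scaled by library sum only. Permutation tests used Python 3.11.15 with scipy 1.17.1. The fit was tested on simulated data. These had no effect of oxygen and no heat change at features with few reads, a simpler case than the libraries here.

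Named features were, with gene names unavailable, at most 2 in each direction by smallest p among AJAP and among MSTRG identifiers (libraries of the sides not overlapping, a mean of 5 FPKM or more on either side), by difference of mean FPKM, and by interaction estimate in each sign. Alternatives were the pseudocount (0.1 and 1), the filter (none and 2 FPKM), scaling, a replicate block, robust variance, voom, other models, a 2-fold minimum and leaving out each library. The comparison, its rule and these choices were made with earlier results of these data known. Gene lists and tissue markers were not used, because no identifier matched a name.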

Additional observations from a re-analysis of the deposited data

Results flagged for a closer look

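Values of the 16 named features and of the 4 whole-library measures were examined for a library standing apart from the other 5 on its side, in 40 sets of 6 libraries, and 2 did so. Chance flags about 1 in 20 such sets, and each set joins 2 treatments. For MSTRG.43287, hypoxic replicate 3 was the highest of the libraries not at 26 °C, at -0.112 on the log2(FPKM + 0.5) scale (0.426 FPKM, from 4 reads). For MSTRG.136044, control replicate 3 was the lowest of these libraries, at 1.27 on that scale (1.91 FPKM, from 25 reads).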

How the results depend on the processing

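The count of 162 features was 65 with no filter on low values (more features tested), 15 with no oxygen term and 61 with a replicate block, and ran from 20 to 111 with 1 library left out. In the block fit 56 of the 162 were called. Of the 8 features named by difference of mean FPKM or by interaction, 7 missed the threshold in it (adjusted p 0.059 to 0.093 in limma) and AJAP09762 passed, as did the other 8 named features. Nothing in the labels tells whether replicate numbers pair the libraries. Deviations from group means correlated at -0.0799 to 0.0863 between libraries of the same number and at -0.0562 to 0.0793 between others. A library correlated best with its own number in 13 of 36 comparisons, each with 3 libraries to choose from. Such weak correlations do not tell whether the libraries are paired. The other alternatives stayed within 1.5 times: 167 and 156 at pseudocounts of 0.1 and 1, 228 with a filter at 2 FPKM, 180 with median-of-ratios scaling, 172 with quantile normalization, 175 with robust variance, 190 with voom, 174 in the 4-group model and 150 with a 2-fold minimum. The interaction count was 0 in each of the 9 other alternatives run for it and ran from 0 to 2 with 1 library left out. Of the 162, 43 were called under each of the alternatives with all 12 libraries and an oxygen term, the 2-fold minimum not counted.

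The MSTRG difference of 2.35 percentage points was 1.99 in reads, 1.51 without the 100 most abundant features, and 1.70 to 2.67 with 1 library left out. With a replicate block it was 2.35 (adjusted exact permutation p = 0.125, where the smallest unadjusted p is 0.03125). The difference of the 100 most abundant features ran from -4.05 to -2.44 with 1 library left out. Calls of single named features were lost in 126 of 368 alternative fits, and none changed direction. The causes of these losses were not tested. Levels under 2 FPKM rest on few reads, and the part of this in the calls was not tested.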
